A study of Drosophila melanogaster with 18 samples.

Results

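Drsl5 (Drosomycin-like 5, also listed as CG10812) is a gene of the Drosomycin family on chromosome arm 3L of Drosophila melanogaster. It was followed across whole-embryo microarrays in which the E2F and Rb genes had been lost or overexpressed. All probe sets annotated to Drsl5 were taken. There was 1 among the 13966 probe sets on the array, and Drsl5 was 1 of 10844 genes with a probe set of their own. The gene was picked from these data for its opposite change in E2f1 mutants at the 2 ages. Its values in E2f1 mutants and controls are therefore given as a description, and tests on it use the other 5 groups.

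Drosomycin is a small secreted peptide that kills fungi. In fly larvae and adults its gene is switched on in the fat body by the Toll pathway, through the NF-kappaB factors Dif and Dorsal, and in surface epithelia by local signals. The related Drosomycin-like genes lie close to it in the genome. E2f1 and its partner Dp form a transcription factor that drives genes of DNA replication, while E2f2 mainly represses, and Rbf1, the fly retinoblastoma protein, binds E2F and blocks activation.

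The series held 18 arrays, 2 for each of 9 groups, each from about 200 to 700 whole embryos collected over 2 h and aged at 25 °C. The control was the Arm-Gal4 driver line crossed to yw, at 8-10 h and at 14-16 h. In 4 further 8-10 h groups the same driver, which acts in most cells through the armadillo promoter, was crossed to E2f1/Dp, to E2f2/Dp, to Rbf1, or to E2f1336-805. The last is a dominant negative fragment of E2f1 without its DNA-binding domain, called the E2f1 fragment below. Dp mutants were Dpa2/Dpa4 null embryos of 8-10 h from parents balanced over CyO[Kr-GFP]. E2f1 mutants were E2f17172/E2f191 null embryos from parents balanced over TM3[Kr-GFP], taken at 8-10 h and at 14-16 h. Mutants of 8-10 h were sorted by machine, and those of 14-16 h were picked by hand for the absence of GFP. The mutants carried no driver and came from heterozygous mothers, so genotype, stock, maternal product and sorting cannot be told apart. In RNA from whole embryos, fewer cells of a type and less RNA per cell cannot be told apart either. The labels do not state that the 2 arrays of a group stem from separate embryo collections. The p-values therefore cover the spread between these arrays, which may be technical.

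In 8-10 h control embryos the deposited Drsl5 signals were 9349.3 and 13759.6. They were 9621.5 and 13017.3 with E2f1/Dp, and 11165.5 and 10305.7 with E2f2/Dp. The E2f1 fragment gave 14957.5 and 14634, and Rbf1 gave 7909.7 and 8114. The highest signals were those of the E2f1 fragment, and the lowest of these 5 groups were those of Rbf1. Dp mutants gave 4266.1 and 6350.8, below all 10 arrays of driver crosses of that age. E2f1 mutants of 8-10 h gave 786.3 and 1138.4, the lowest of all arrays of that age. At 14-16 h the control had fallen to 459.5 and 656.1, whereas E2f1 mutants gave 1546.7 and 1161.7. The 2 genotypes did not overlap at either age, and their order was opposite.

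**Figure D1:**
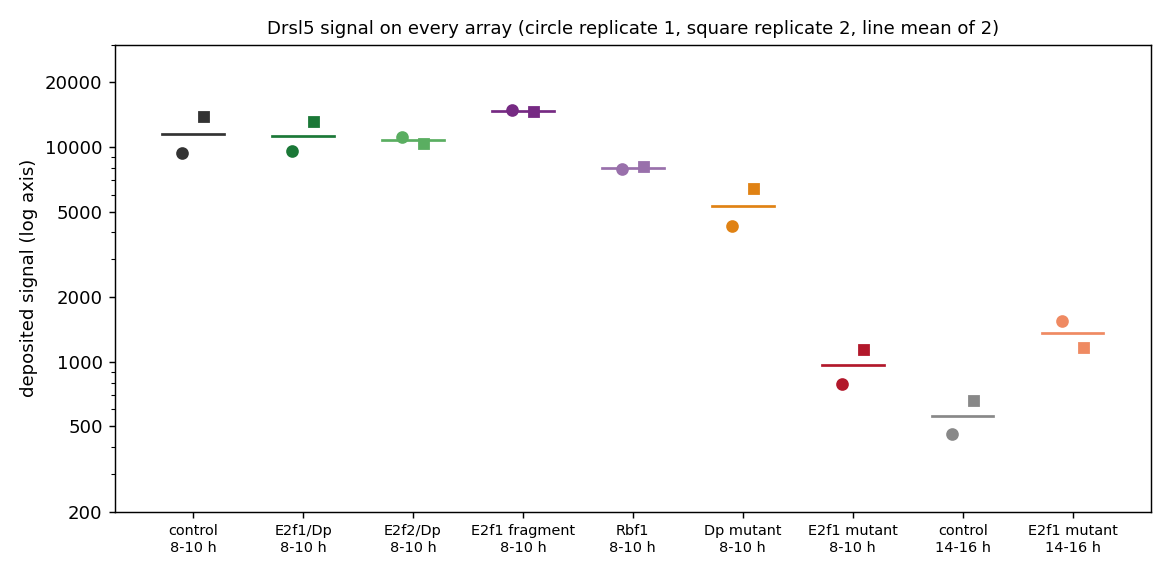
Deposited Drsl5 signal (log axis) on each of the 18 arrays, by genotype and age. Circles are replicate 1, squares replicate 2 and lines the mean of the 2. The 5 driver-cross groups of 8-10 h lie between 7909.7 and 14957.5, the Dp mutants below them, and the E2f1 mutants and 14-16 h control between 459.5 and 1546.7.

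As group means of deposited signal (± SD, n = 2), Drsl5 stood at 11554 ± 3120 in the 8-10 h control and 11319 ± 2400 with E2f1/Dp. It stood at 10736 ± 608 with E2f2/Dp, 14796 ± 229 with the E2f1 fragment and 8011.8 ± 144 with Rbf1. The Dp mutant mean was 5308.5 ± 1470. The E2f1 mutant means were 962.35 ± 249 at 8-10 h and 1354.2 ± 272 at 14-16 h, and the 14-16 h control mean was 557.8 ± 139. All 18 values lay above the floor of 47.5 that was set for dim signals, so the lowest group still had a measured level.

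Differences from here on are in log2 units, with a standard error (SE), from 1 limma fit of all 9 groups on quantile-normalised signals, in which 8975 units (genes, or probe sets without a single gene) were tested. "Changed", "rose" and "fell" mean a Benjamini-Hochberg adjusted p under 0.05 over those units. After normalisation the order of the groups from the highest was E2f1 fragment, E2f1/Dp, 8-10 h control, E2f2/Dp and Rbf1, and each of these overlapped its neighbour. There followed the Dp mutant, the 14-16 h E2f1 mutant, the 8-10 h E2f1 mutant and the 14-16 h control, none of which overlapped the group before it. The gap between the 2 ages of E2f1 mutant was narrow, with the lowest late array at a normalised signal of 1173.9 and the highest early one at 1140.6. The spread between arrays of a group was 0.32 log2 units. Both arrays of the E2f1 fragment took the same normalised value because Drsl5 held the same rank on each.

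In the groups that served to pick the gene, Drsl5 was 12.1-fold lower in E2f1 mutants than in control embryos at 8-10 h, a log2 difference of -3.59 ± 0.28 (SE). That was the 2nd largest fall among the 8975 units. At 14-16 h it was 2.41-fold higher in the mutants, a log2 difference of 1.27 ± 0.28, which ranked 184th among the rises. The late difference minus the early one was 4.86 ± 0.39, the largest positive value of all units. From 8-10 h to 14-16 h the control went down 20.3-fold (log2 -4.34), while E2f1 mutants went up 1.43-fold (log2 0.52). Thus "high early" describes every 8-10 h group but the E2f1 mutants. "Lost" is too strong a word, since the early mutant signals of 786.3 and 1138.4 lay above those of the late control. No test was made of these values. Over all units, 2.55% changed in E2f1 mutants at 8-10 h, 5.6% at 14-16 h, and 2.75% between the 2 differences.

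Among the 5 groups that did not serve to pick the gene, Drsl5 differed by limma's F test (adjusted p = 0.0171), as did 9.34% of units. This call was lost without the first Dp mutant array (adjusted p = 0.204), with no filter on dim probe sets (0.0748) and without the mean-variance trend (0.0739). It was 2.25-fold lower in Dp mutants than in the mean of the 4 overexpression crosses. The log2 difference was -1.17 ± 0.22 (SE, 95% interval -1.63 to -0.71, limma adjusted p = 0.00391), and both Dp mutant arrays lay below all 8 arrays of those crosses. In that comparison 7.31% of units changed. Without the first Dp mutant array the difference was -0.88 and no longer passed (adjusted p = 0.177). Against the 8-10 h control, whose arrays had served to pick the gene, Dp mutants were 2.15-fold lower (log2 -1.10 ± 0.28, not tested). Early E2f1 mutants were in turn 5.62-fold lower than Dp mutants (log2 -2.49 ± 0.28, not tested), the 16th largest fall of all units.

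Of the overexpression crosses 3 pairs were compared, and Drsl5 passed the test in none (limma). E2f1/Dp minus E2f2/Dp was 0.19 (95% interval -0.40 to 0.77, adjusted p = 0.855), where 0.301% of units changed. E2f1/Dp minus the E2f1 fragment was -0.18 (-0.76 to 0.41, adjusted p = 0.881), where 2.4% changed. E2f1/Dp minus Rbf1 was 0.38 (-0.21 to 0.96, adjusted p = 0.54), where 4.37% changed. A missed threshold does not show that the crosses were alike, and the intervals reach differences of 0.77 and more.

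The transcripts that had been manipulated were themselves on the arrays. E2f1, the activator, read 9991 and 6412.9 with E2f1/Dp against 2680.5 and 1317.6 in the 8-10 h control, and Drsl5 in those 2 groups overlapped. In early E2f1 mutants E2f1 read 350.5 and 820.2, and at 14-16 h it was 543.4 and 421.1 in mutants against 583.4 and 563.7 in the control. The late control thus had an E2f1 signal close to that of the early mutants. Dp, its partner, read 512.5 and 695.8 in Dp mutants against 2122.2 and 1615.4 in the 8-10 h control. Rbf, the gene for Rbf1, read 2270.5 and 1998.9 with Rbf1 against 323.5 and 248.3 in the control. The Rbf1 arrays also read 3233 and 8814.2 for E2f1, and the part of that in the Rbf1 values of Drsl5 was not tested.

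PCNA, a DNA replication clamp and a known E2F target in the fly, read 6020.2 and 4562.3 in the 8-10 h control. It read 1776.4 and 2151.8 in Dp mutants and 1188.8 and 1072 in early E2f1 mutants, so across these 3 groups it had the same order as Drsl5. It fell in early E2f1 mutants (log2 -2.19 ± 0.20, adjusted p = 2.81e-05). At 14-16 h the order was unlike that of Drsl5, with PCNA at 1158 and 1226.6 in the control and 871.9 and 588 in E2f1 mutants. With E2f1/Dp, PCNA read 9454.8 and 10039.1, above both control arrays, where Drsl5 overlapped the control. Of 12 tested members of the E2F network list, PCNA was the 1 that fell in early E2f1 mutants, and none rose. By limma 5 of the 12 had an unadjusted p under 0.05. Their differences ran from -2.19 (PCNA) to -0.11 (lin-52), with a median of -0.713 against -0.015 over all units. Over all units 2.55% changed in that comparison. In control embryos 11 of the 12 fell with age, as did 2297 of all 8975 units.

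Of the 7 genes of the Drosomycin family, 3 had a probe set of their own: Drs, Drsl5 and Drsl6. Drsl2 and Drsl3 share 1 probe set, whose deposited signals ran from 6 to 116.3 (median 64.35) and passed the floor on 13 of 18 arrays. Drsl6 ran from 23.9 to 177.9 (median 54) and passed the floor on 11 arrays. Neither was bright enough to be tested. Drs, the gene for Drosomycin itself, ran from 16.4 to 626.1 (median 121.4) and passed the floor on 17 arrays.

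Drs showed an order of groups unlike that of Drsl5. It read 97.8 and 108.9 in the 8-10 h control and 79.7 to 127.2 over the 8 arrays of the overexpression crosses. Dp mutants read 385.7 and 626.1, the highest of all, and early E2f1 mutants 242.5 and 370.4. At 14-16 h it read 167.5 and 218.9 in the control and 104.2 and 16.4 in E2f1 mutants, the last below the floor. In both early mutants the Drs arrays lay above the control and the Drsl5 arrays below it; the 2 mutants are set against the same control arrays. In E2f1 mutants of 14-16 h both relations were turned round.

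Drs rose in Dp mutants against the 8-10 h control (log2 2.13 ± 0.48, limma adjusted p = 0.0238), as did 187 of all 8975 units. It also rose against the mean of the 4 overexpression crosses (2.15 ± 0.38, adjusted p = 0.00286). The first call was lost without the first control array (adjusted p = 0.0971) or either Dp mutant array (0.0759 and 0.125), and the other without the Dp mutant replicate 2 (0.0568). In E2f1 mutants the differences were 1.41 at 8-10 h (adjusted p = 0.122) and -1.38 at 14-16 h (adjusted p = 0.115). The late minus the early difference was -2.78 ± 0.67 (adjusted p = 0.0378), opposite in sign to that of Drsl5, and was lost without most single arrays. From 8-10 h to 14-16 h Drs fell in E2f1 mutants (log2 -2.02, adjusted p = 0.00389), beside 35.7% of all units, and this was lost without the late mutant array below the floor (0.0582). In the control the difference with age was 0.77 (adjusted p = 0.209).

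Of 14 antimicrobial peptide genes outside the family, 5 had a probe set of their own. Def (Defensin) passed the floor on 1 of 18 arrays and Mtk (Metchnikowin, an antifungal peptide) on 5. Mtk was highest, at 357.5, on the second Dp mutant array, which was also the highest for Drs. AttD (an Attacin) ran from 24.2 to 212.3 and CecB (a Cecropin) from 11.3 to 139.9. DptB (Diptericin B, a peptide against Gram-negative bacteria) was the 1 gene of the list bright enough to be tested, at 116.5 to 875.8. It differed by 0.76 in early E2f1 mutants (adjusted p = 0.569) and by 1.21 with age in the control (adjusted p = 0.131).

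Drsl5 lies in a stretch of 3L that also holds genes of other families. In annotation order, Drsl2, Drsl3, Drsl4 and Drsl5 are followed by PIG-C, and the family genes Drsl1, Drsl6 and Drs come later. Of the other genes between or beside them, with Drs, 12 were tested. None changed in E2f1 mutants at 8-10 h (limma, 4 at an unadjusted p under 0.05), and 1 rose at 14-16 h, PIG-C. With age in the control 2 rose and 2 fell, and in Dp mutants against the control 1 rose, Drs. Over all units 2.55% changed in early E2f1 mutants, 5.6% in late ones, 43.2% with age in the control and 4% in Dp mutants.

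PIG-C, the gene next to Drsl5, is named for a subunit of the enzyme that starts GPI anchor synthesis in mammals. Its deposited signals were 583.1 and 416.5 in the 8-10 h control, 539.2 and 329.7 in Dp mutants, and 212.6 and 306.1 in early E2f1 mutants. At 14-16 h they were 63.1 and 49.6 in the control against 243.9 and 119.9 in E2f1 mutants. The early mutants thus lay below both control arrays and the late mutants above them, as for Drsl5, while the Dp mutants overlapped the control. Over the 9 group means PIG-C and Drsl5 had a Pearson r of 0.865, as a description across groups measured on the same arrays.

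PIG-C rose in E2f1 mutants at 14-16 h (log2 1.78 ± 0.42, limma adjusted p = 0.0192). At 8-10 h it differed by -1.03 ± 0.42 (adjusted p = 0.197). The late minus the early difference was 2.81 ± 0.59 (adjusted p = 0.0181). The rise was lost without either late control array (0.0874 and 0.109) or the first late mutant array (0.205). The difference between ages was lost without 4 of the 8 arrays, with adjusted p-values of 0.0531 to 0.0788. In the control PIG-C fell with age (-3.22, adjusted p = 2.6e-05). In Dp mutants against control it differed by -0.26 (adjusted p = 0.773).

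**Figure D2:**
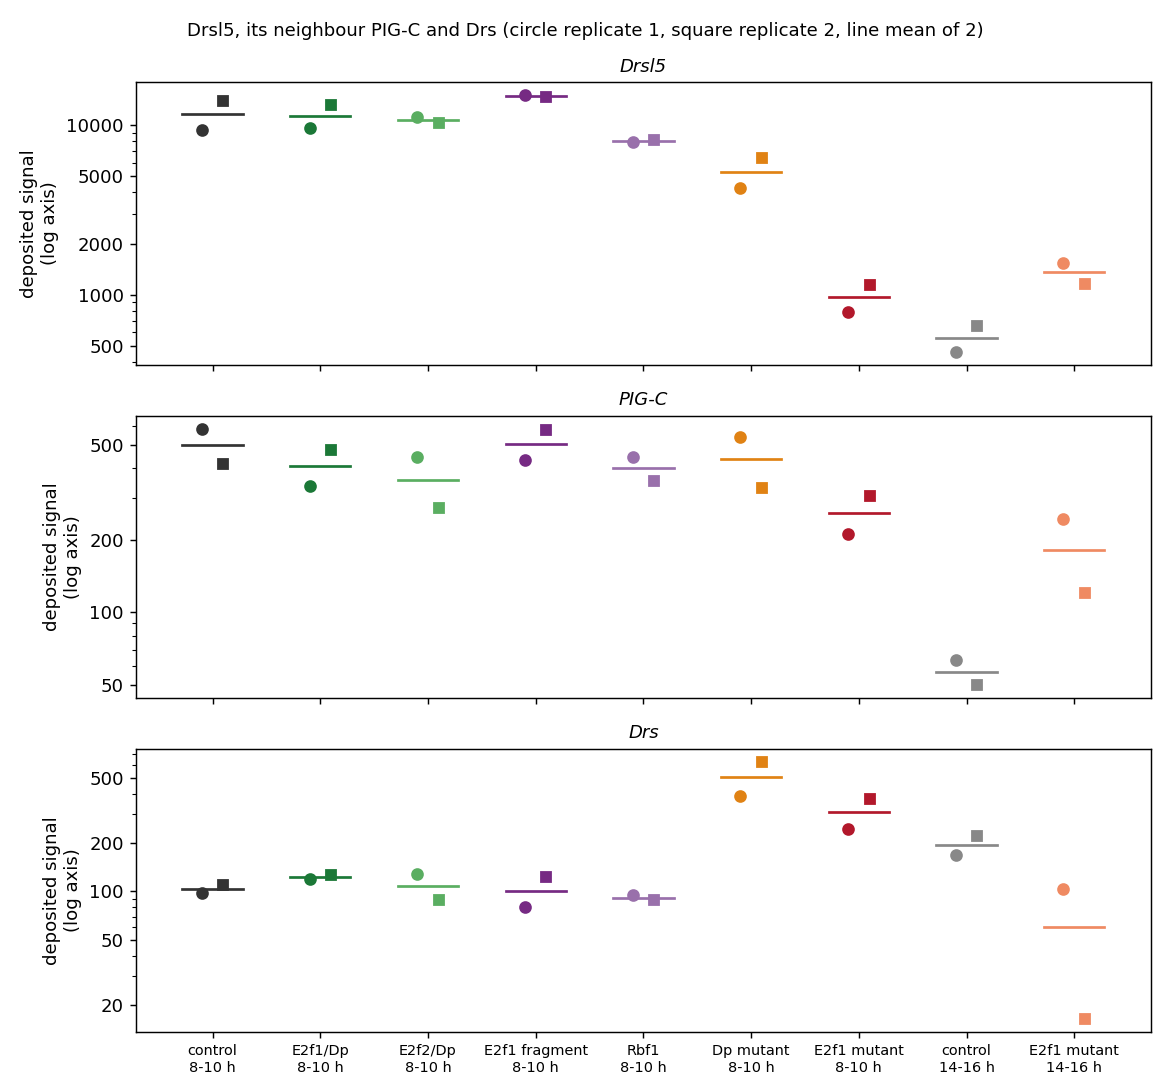
Deposited signal (log axis) of Drsl5, of its neighbour PIG-C and of Drs on the 18 arrays. Circles are replicate 1, squares replicate 2 and lines the mean of the 2. Dp mutants are low for Drsl5, within the control range or below it for PIG-C, and highest for Drs, and the 14-16 h control is lowest for Drsl5 and PIG-C.

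Among the other tested neighbours, Pearson r with Drsl5 over the 9 group means ran from -0.841 (CG12009) to 0.872 (Ythdc1). Ythdc1, a reader of methylated RNA that lies beyond Drs, fell with age in the control (log2 -1.85, limma adjusted p = 0.000235). In E2f1 mutants it differed by -0.92 early and -0.07 late. CG12010 (r = 0.7) differed by -1.38 early and 0.55 late. None of these mutant differences passed the threshold. On the other side of the family, CG12009 rose with age (2.40, adjusted p = 0.0046) and so did CG14968 (0.92, adjusted p = 0.0246). These rises were lost without the first 8-10 h control array (0.069 and 0.185), and that of CG14968 also without either late control array (0.0704 and 0.11).

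Opposite changes at the 2 ages were uncommon. In E2f1 mutants 34 units other than Drsl5 changed at both ages, of which 28 kept the same direction and 6 turned. Of the 6, 3 fell early and rose late and 3 did the reverse, and 3 probe sets among them had no single gene. Drsl5 was picked for this pattern and is no part of that count; with it the units past the threshold in opposite directions number 7, or 0.078% of those tested. That count of 7 was 2 to 35 when single arrays were left out, with 35 without replicate 2 of the 8-10 h control, and 4 when the 2 ages were fitted on their own 8 arrays.

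For the 3 probe sets without a single gene, the early and late log2 differences were 3.655 and -2.82, 2.54 and -4.998, and -1.02 and 1.115. The first of these moved more at 8-10 h than Drsl5 did (-3.594). The named genes moved less at that age than Drsl5, which was picked for its change. Nup43, a nuclear pore protein, read 1206.1 and 1037.9 in the 8-10 h control and 586.8 and 561.4 in E2f1 mutants. At 14-16 h it read 83.7 and 121.5 in the control and 189.8 and 158.4 in mutants, so the groups did not overlap at either age. Its log2 differences were -0.98 (adjusted p = 0.047) and 0.99 (adjusted p = 0.0254), and the late minus the early one was 1.97 ± 0.35 (adjusted p = 0.00656). Aos1, a subunit of the enzyme that activates SUMO, read 3523.4 and 1877.2 in the early control against 1323.5 and 1463.5 in mutants. Late values were 430.8 and 384.2 in the control and 643 and 653.9 in mutants. Its differences were -0.84 (adjusted p = 0.0453) and 0.76 (adjusted p = 0.0462), and the late minus the early one was 1.60 ± 0.30 (adjusted p = 0.00828).

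Cpr47Eb, a cuticle protein gene, turned the other way. It read 27.6 and 62.8 in the 8-10 h control, the former below the floor, and 242.9 and 589.8 in early E2f1 mutants. At 14-16 h it read 553.8 and 1025 in the control and 192.8 and 138.8 in mutants. The log2 differences, which depend on the floor at the early age, were 2.81 (adjusted p = 0.0141) and -2.17 (adjusted p = 0.0324). The late minus the early one was -4.97 ± 0.79 (adjusted p = 0.00297). Each single-age change of Nup43, Aos1 and Cpr47Eb was lost without at least 2 of the 4 arrays it compared. The 3 genes were taken because both changes passed in opposite directions on these same arrays. That choice all but fixed a difference between ages, so its p-values carry no further support.

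**Figure D3:**
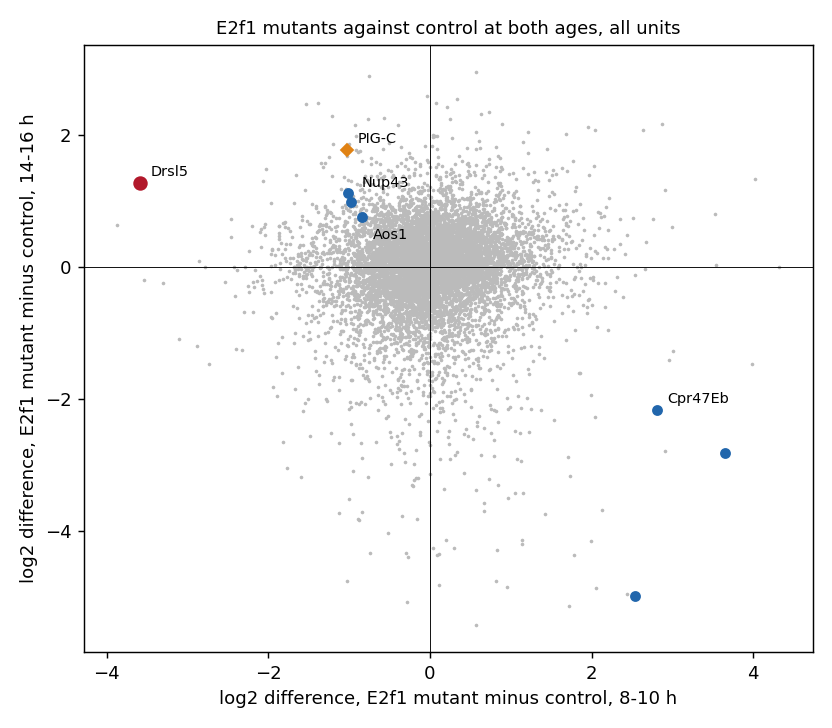
Log2 difference of E2f1 mutants from control at 8-10 h (x axis) and 14-16 h (y axis) for all 8975 units tested. Grey dots are units, blue dots those changed in opposite directions at the 2 ages, red is Drsl5 and the orange diamond PIG-C. Drsl5, which was picked for its change, lies at -3.59 and 1.27, farther left than the 3 units that fell early and rose late.

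The 8 named genes whose group means were most like those of Drsl5 were taken by Pearson r over the 9 groups, among 2362 named genes whose means spanned at least 2 log2 units. Of those, 34 had an r over 0.9. The likeness chose these genes, so their values carry no test. Mcm3 (r = 0.967), Orc5 (0.949) and Sld5 (0.946) encode subunits of the replicative helicase, the origin recognition complex and the GINS complex. MED28 (0.959) encodes a Mediator subunit and abs (0.951) an RNA helicase. The remaining 3 were CG15601 (0.969), CG7376 (0.966) and mia (0.964).

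Mcm3 came nearest to Drsl5 in the size of its early difference. Its mean deposited signal was 1274 in the 8-10 h control, 580.2 in Dp mutants and 170.9 in early E2f1 mutants, a log2 difference of -3.30 for the last. At 14-16 h it stood at 161.7 in the control and 123.2 in E2f1 mutants, a difference of -0.25, where Drsl5 had 1.27. Orc5 went from 509.4 to 156.4 in early mutants (log2 -1.80) and stood at 111.4 and 146.2 in the late control and mutants (0.61). For Sld5 the early difference was -1.86 and the late one 0.06. Over the 8 genes the early differences ran from -3.30 to -0.98 and the late ones from -0.25 to 0.66. In the fit, with dim signals raised to the floor, none of these late differences was as large as that of Drsl5. The control fell with age by 1.76 to 2.96 on the log2 scale over the 8, against a log2 difference of -4.34 for Drsl5. The floor cut these falls short for mia, abs, CG15601, CG7376 and Sld5, which had late control signal below it. Mcm3, Orc5 and MED28 had none below it. The mean deposited signal of mia went from 212 to 10.35 with age in the control, and stood at 74.3 in late E2f1 mutants. The floor thus also cut short its late difference of 0.66, which cannot be set against that of Drsl5 in size. Another probe set of mia went the other way in early mutants, at 0.49 against -1.82. With signals as deposited 5 of the 8 genes were kept, with Spearman's rho 2, and with r over the 18 arrays 3.

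**Figure D4:**
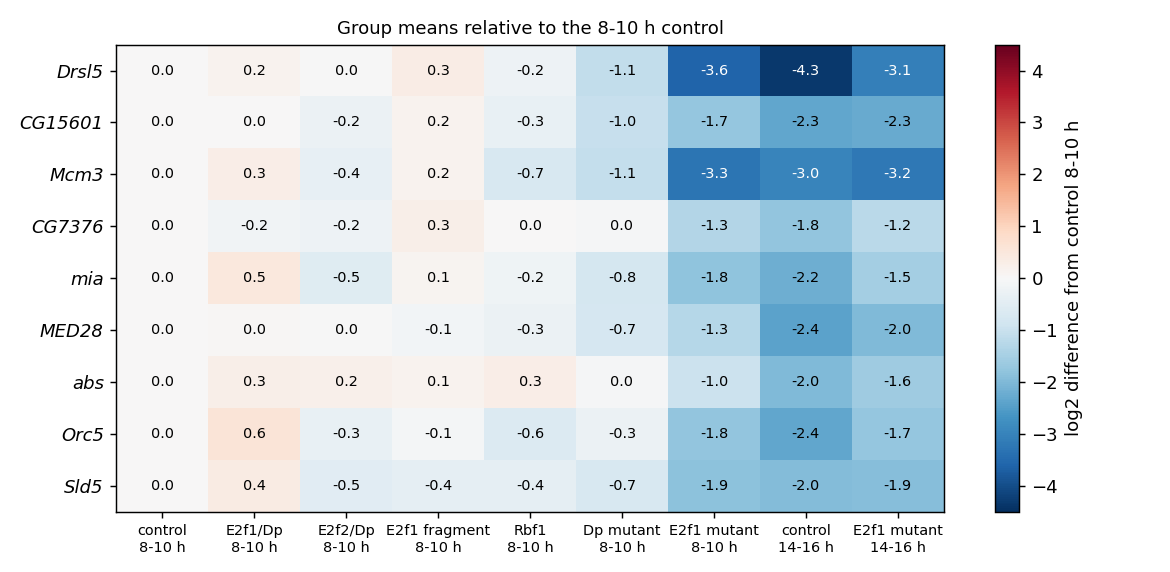
Group means of Drsl5 and the 8 genes most like it, as log2 differences from the 8-10 h control (colour and printed value). All 9 genes are lowest in the E2f1 mutants and the late control, and the 14-16 h control is the lowest group of Drsl5, at -4.3.

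The pathways that act on Drosomycin genes were read from lists of Toll, Imd and JAK-STAT genes. With the Drosomycin family and the other antimicrobial peptides they held 74 members besides Drsl5, of which 46 had a probe set of their own and 33 were tested. In E2f1 mutants at 8-10 h none rose and 3 fell, which is 9.09% beside 2.55% of all units. Their median difference was 0.03, against -0.01 over all units, and the 3 calls were each lost without most single arrays of that comparison. At 14-16 h none rose and 5 fell (15.2% beside 5.6%), with a median of -0.17 against 0.06. In the control 7 rose and 5 fell with age (36.4% beside 43.2%), and in Dp mutants 1 rose and 2 fell (9.09% beside 4%).

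Of 15 tested Toll pathway genes none changed in E2f1 mutants at 8-10 h (limma, 2 at an unadjusted p under 0.05). Tl, the Toll receptor, read 1770.9 and 1522.2 in the 14-16 h control and 471.1 and 529.5 in E2f1 mutants of that age. It fell in mutants (log2 -1.62 ± 0.22, adjusted p = 0.000377) at the age at which Drsl5 was higher in mutants. dl (Dorsal) rose with age in the control (2.31, adjusted p = 0.000685), from 73.1 and 127.9 to 513.9 and 473.9, while Drsl5 went down. So did spz, the ligand of Toll, from 36.6 and 134 to 389 and 363.4 (2.29, adjusted p = 0.00212), with its first early value below the floor. 18w, a Toll family receptor, fell with age (-1.63, adjusted p = 8.12e-05). The part of the Toll, Imd and JAK-STAT genes in the Drsl5 values was not tested.

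Of 10 tested Imd pathway genes, 2 fell in early E2f1 mutants, beside 2.55% of all units that changed in either direction. Dredd, a caspase of the pathway, read 560.3 and 762.3 in the control and 121.5 and 311.5 in mutants (log2 -1.84 ± 0.42, adjusted p = 0.0308). PGRP-SC2, an enzyme that degrades peptidoglycan, read 409.9 and 669.8 against 219.5 and 149.2 (-1.60 ± 0.38, adjusted p = 0.0373). PGRP-SC2 also fell at 14-16 h, from 823.2 and 755 to 96.2 and 72.8 (-3.19 ± 0.38, adjusted p = 0.000127), where Drsl5 was higher. The early calls were lost without 3 and all 4 of the single arrays, with adjusted p-values of up to 0.231, and the late one was kept without each array. With age in the control PGRP-LE, a receptor for peptidoglycan, rose by 1.60 (adjusted p = 0.000155). Rel (Relish, the NF-kappaB factor of the pathway) rose by 1.40 (adjusted p = 0.009) and PGRP-LB by 1.17 (adjusted p = 0.0128). The call of Rel was lost without the second late control array (0.0621), and that of PGRP-LB without 3 of the 4 arrays (0.0501 to 0.0703).

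Of 6 tested JAK-STAT genes, 1 fell in early E2f1 mutants, Ptp61F, a phosphatase that damps the pathway (log2 -0.82, limma adjusted p = 0.0457). Over all units 2.55% changed there, 5.6% in late E2f1 mutants and 4% in Dp mutants. At 14-16 h 3 fell: Ptp61F (-1.41, adjusted p = 0.000665), the SUMO ligase gene Su(var)2-10 (-1.57, adjusted p = 0.00491) and the receptor gene dome (-0.94, adjusted p = 0.0297). In Dp mutants dome (-1.02, adjusted p = 0.0285) and Ptp61F (-0.79, adjusted p = 0.0428) fell. Of these calls, that of Ptp61F at 14-16 h was kept without each single array, and the others were each lost without at least 2 of 4. None of the 5 GATA factors, which act with NF-kappaB factors at immune genes, changed in either mutant by limma, with 1 at an unadjusted p under 0.05 in E2f1 mutants of each age and 0 in Dp mutants. With age in the control pnr (log2 -2.60), srp (-1.48) and grn (-1.13) fell and GATAe rose (1.41), beside 43.2% of all units that changed. The call of pnr was kept without each single array. Those of srp, grn and GATAe were lost without the first 8-10 h control array (adjusted p = 0.0916, 0.235 and 0.122).

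Markers of stage and of other cell types moved with several of these comparisons. The mean log2 signal of 9 early markers (genes of the extended germ band stage) was 10.48 and 9.98 on the 8-10 h control arrays. It was 9.54 and 9.64 in early E2f1 mutants, 9.62 and 9.69 in Dp mutants, and 7.18 to 7.41 on the 4 arrays of 14-16 h. Of these 9 genes 8 fell with age in the control, as did 2297 of all 8975 units. In early E2f1 mutants 1 fell, l(1)sc, beside 2.55% of units that changed in either direction. In Dp mutants 1 fell, Ocho, beside 4% that changed. Each of these 2 calls was lost without 3 of the 4 arrays it compared (adjusted p = 0.144 to 0.293 and 0.0802 to 0.205), and that of l(1)sc also with a replicate block (0.0536). Their part in the Drsl5 values was not tested. As group means the markers stood at 10.23 in the early control, 9.59 in early E2f1 mutants and 9.65 in Dp mutants, and at 7.31 and 7.28 in the late control and late E2f1 mutants. They stood at 9.88 with E2f1/Dp, 9.75 with E2f2/Dp, 10.11 with the E2f1 fragment and 9.91 with Rbf1.

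**Figure D5:**
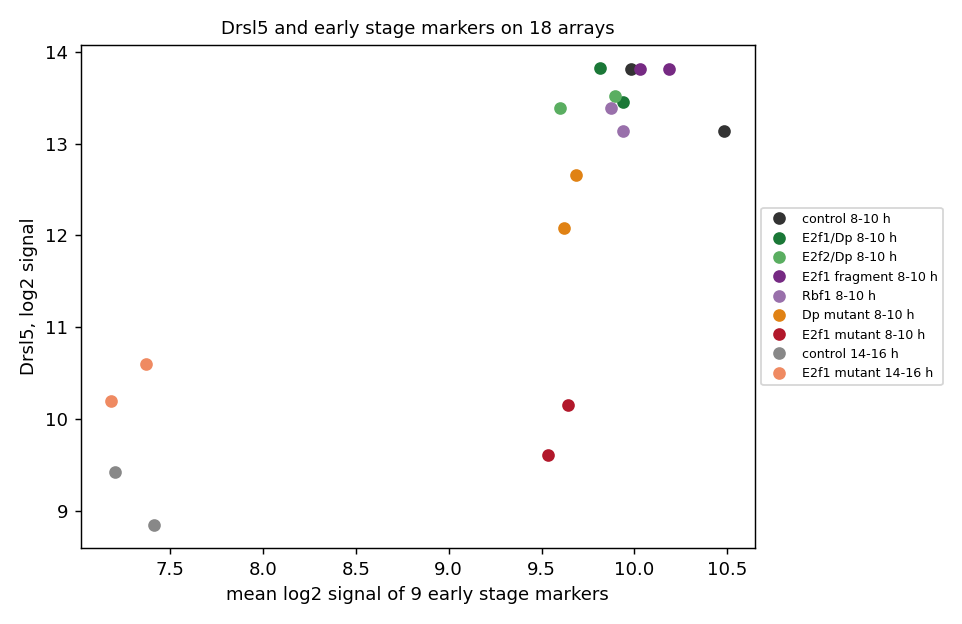
Drsl5 log2 signal (y axis) against the mean log2 signal of 9 early stage markers (x axis) on the 18 arrays, coloured by group. The early E2f1 mutants lie at 9.54 and 9.64 on the x axis and at 9.61 and 10.16 on the y axis, and the 4 arrays of 14-16 h lie at the left, between 7.18 and 7.41.

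The muscle markers taken for late stage (9 tested) had group means of 9.67 in the 8-10 h control, 10.03 in early E2f1 mutants and 10.81 in Dp mutants. At 14-16 h they stood at 12.66 in the control and 12.65 in mutants. In the overexpression crosses they stood at 10.29 with E2f1/Dp, 9.20 with E2f2/Dp, 9.07 with Rbf1 and 7.84 with the E2f1 fragment. Against the 8-10 h control 5 of the 9 fell with the E2f1 fragment, as did 62 of all 8975 units. The part of these stage markers in the Drsl5 values was not tested. Fat body markers (4 tested), of the tissue that makes Drosomycin in larvae and adults, ranged from 8.19 to 8.62 over the 8-10 h control arrays and from 9.05 to 9.32 in early E2f1 mutants. In the latter 1 of the 4 rose, apolpp (log2 1.18, limma adjusted p = 0.0393), beside 2.55% of units that changed in either direction. That call was lost without 3 of the 4 arrays (0.105 to 0.316), with no filter (0.096), without the trend (0.0991) and with only the groups compared (0.255). In Dp mutants they ranged from 8.49 to 9.0, in the late control from 8.86 to 9.04 and in late mutants from 8.93 to 9.31. Haemocyte markers (9 tested) had means of 8.89, 9.25 and 9.22 in the early control, Dp mutants and early E2f1 mutants, and none changed by limma in Dp mutants (1 at an unadjusted p under 0.05) or early E2f1 mutants (2).

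Midgut markers (7 tested) had a mean of 7.88 in the 8-10 h control, 9.12 in early E2f1 mutants and 10.33 in Dp mutants. It was 10.60 in the late control against 8.78 in late E2f1 mutants. Of the 7, 2 rose in early E2f1 mutants (beside 2.55% of units that changed), 4 rose in Dp mutants (beside 4%), and 3 fell in late E2f1 mutants (beside 5.6%). Single arrays decided 3 of these calls. Jon65Aiv in early E2f1 mutants was lost without 2 of 4 arrays (0.0795 and 0.109), alphaTry in Dp mutants without 3 (0.0654 to 0.208) and Jon25Bii in late E2f1 mutants without 2 (0.0615 and 0.104). The list did not move as 1 in the late mutants. There mex1 (log2 0.22) and GATAe (0.28) had positive differences, and Mal-A1 (-1.27) and Jon65Aiv (-1.41) negative ones that did not pass. Of 12 tested epidermis and cuticle markers 1 rose in early E2f1 mutants, TwdlT, and 1, grh, in late E2f1 mutants and in Dp mutants, beside the same shares of all units. TwdlT was lost without 3 of 4 arrays (0.138 to 0.157) and grh, in each comparison, without every array in turn (0.103 to 0.216 and 0.0576 to 0.138). Of 7 tracheal markers none changed by limma in either early mutant (4 at an unadjusted p under 0.05 in each) and 1 fell in late E2f1 mutants, pio, a call lost without 3 of 4 arrays (0.0685 to 0.142). None of 3 salivary gland markers changed in either mutant (1 at an unadjusted p under 0.05, in early E2f1 mutants). The part of these tissues in the Drsl5 values was not tested.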

How the data were processed

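Whole-embryo RNA was measured on 18 single-colour Affymetrix arrays, 2 per group. The deposited values are summarised probe set intensities on a linear scale. Their 2% trimmed means were 495.5 to 497.8 on all arrays and their medians 209.15 to 247.75. The summarising software is not given in the sources used here, and the files name no genome build. Platform annotation gave 12443 probe sets 1 gene, 327 several and 1196 none; current symbols and gene order came from RefSeq's gene table. No sequences were used here.

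Because array medians differed by 0.244 log2 units, over the limit of 0.1, signals were quantile-normalised. They were then raised to a floor at the 20th percentile (47.5), put on the log2 scale and filtered of the dimmest 30% of probe sets. The brightest probe set stood for each gene, which left 8975 units (7927 named genes). limma 3.58.1 in R 4.3.3 was fitted to 9 group means (eBayes with trend), with 9 residual and 6.16 prior degrees of freedom and Benjamini-Hochberg adjustment. Array values in the text are the deposited signals; folds and differences are from the fit. The number of arrays limits the precision.

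Drsl5, the lists and the tests were chosen with earlier results of these data known. Named genes were Drsl5 and its family, the 8 genes most like it over the group means, up to 4 in each order with opposite changes at the 2 ages, the nearest 3 genes on each side of the family, the E2F genes, and up to 4 members of each list per comparison; PIG-C, between family members, and further list members were named after their values were seen. Alternatives covered scaling, floor, offset, filter, probe sets, trend, robust fitting, a replicate block, the groups fitted and each array left out. The fit was tested on simulated data with known changes.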

Additional observations from a re-analysis of the deposited data

Results flagged for a closer look

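These results stand here because the change in E2f1 mutants differed between 8-10 h and 14-16 h. Each value is the late minus the early log2 difference from control. For Drsl5 it was 4.86. The gene was picked for this, so the difference was not tested. Its mutant arrays lay below both control arrays at 8-10 h and above them at 14-16 h, which describes the arrays that picked it. For Drs it was -2.78 (limma adjusted p = 0.0378) and for PIG-C 2.81 (adjusted p = 0.0181), both within the gene cluster of Drsl5 and of opposite sign. It was 1.97 for Nup43 (adjusted p = 0.00656), 1.6 for Aos1 (adjusted p = 0.00828) and -4.97 for Cpr47Eb (adjusted p = 0.00297). Nup43, Aos1 and Cpr47Eb were picked for opposite changes at the 2 ages, which all but fixed these calls. For PCNA it was 1.5 (adjusted p = 0.00822), from -2.19 early and -0.69 late, so PCNA kept its direction. Tl had -1.49 (adjusted p = 0.0174), from -0.13 and -1.62. Su(var)2-10 had -1.97 (adjusted p = 0.0203), from 0.40 and -1.57. The test across all units called 2.75% of them. The values of Drs, PIG-C, Tl and Su(var)2-10 each lost their call without 3 or more single arrays.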

How the results depend on the processing

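With 2 arrays per group, 1 array can decide a call. The F test over 5 groups (adjusted p = 0.0171) gave 0.0748 with no filter on dim probe sets and 0.0739 without the trend, and 0.0207 to 0.204 without single arrays, the last without Dp mutant replicate 1; the cause was not tested for the first pair. Dp mutants minus the 4 crosses kept its direction, at -1.456 to -0.879 without single arrays (adjusted p = 0.00421 to 0.177). E2f1/Dp minus E2f2/Dp was -0.002 to 0.383, E2f1/Dp minus the fragment -0.37 to 0.012 and E2f1/Dp minus Rbf1 0.187 to 0.577; the first turned sign without E2f1/Dp replicate 2 and the fragment's without replicate 1. Described differences of Drsl5 ranged over -3.939 to -3.254 (E2f1 mutants, 8-10 h), 0.979 to 1.555 (14-16 h), -4.686 to -4.004 (control with age) and -1.452 to -0.761 (Dp mutants minus control). Units with opposite changes, Drsl5 counted, numbered 7, with 2 to 35 without single arrays and 4 with only the groups compared. Immune list calls, 3 in early E2f1 mutants, were 1 with no filter, 0 without the trend or with only the groups compared, and 0 to 2 without single arrays. Those in late mutants, 5, were 2 with only the groups compared and 3 to 4 without single arrays; those with age, 12, were 6 to 11; and those in Dp mutants, 3, were 1 without the trend, 0 with only the groups compared and 0 to 4 without single arrays. Of 241 calls of named genes 128 held in every alternative, 139 without each array in turn, and none reversed.

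Replicate numbers did not pair the arrays: over 36 pairs of groups the deviations of same-numbered arrays correlated from -0.161 to 0.15. With the replicate block the Dp mutant difference stayed at -1.172 (adjusted p = 0.00198) and the F test gave 0.00798. E2f1/Dp minus E2f2/Dp stayed at 0.187, minus the fragment at -0.178 and minus Rbf1 at 0.377, and the described differences at -3.594, 1.268, -4.344 and -1.104. The block left the count of opposite units as it was. It gave 2, 5, 10 and 3 immune list calls in the order above, and 6 named calls were lost with it.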
